A study of Mus musculus with 9 samples.

Results

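The proteasome genes were taken as the protein-coding genes whose mouse symbol begins with Psma to Psmg followed by a digit. The rule found 50 of 53679 gene IDs in the counts table, of which 21917 were protein-coding. By role they were 14 genes of the 20S core, 17 of the 19S regulatory particle, 5 of the immunoproteasome and 14 others. The others held 4 chaperones of core assembly, 3 chaperones of base assembly, 2 further activators, an inhibitor, 2 tissue-restricted subunits and 2 genes that match by name. The libraries were made from RNA of C57BL/6 CD8+ T cells that had been activated for 3 days, in 3 groups of 3 libraries, with 1 library of each group from each of mice 715, 725 and 728. One group was Tc0 cells labelled untreated, which are CD8+ T cells activated without polarising cytokines in the usual use of the name. Another was Tc0 cells given coenzyme A (CoA), the acyl carrier that cells make from pantothenate. The third was Tc22 cells labelled untreated, a name used for CD8+ T cells that secrete interleukin-22. No source used here gives the dose of CoA, the cytokines of each culture or the age of the mice.

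The proteasome is the protease that degrades most ubiquitin-tagged proteins. Its barrel, the 20S core, stacks rings of alpha and beta subunits, and the beta subunits encoded by Psmb5, Psmb6 and Psmb7 carry the active sites. The 19S particle caps the barrel: its base holds the ATPases that unfold substrates, and its lid removes the ubiquitin chains. Interferon makes cells put the inducible subunits of Psmb8, Psmb9 and Psmb10 in place of those 3 active subunits and add the PA28 activator encoded by Psme1 and Psme2, which alters the peptides offered on class I molecules. Lymphocytes carry much of this immunoproteasome, and when proteasome activity falls short the transcription factor NRF1, the product of Nfe2l1, raises the genes of core and cap together.

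Libraries summed to between 21841034 and 36254631 counts. Levels are in CPM, a gene's counts scaled to a common library size, and values given in 3s follow the order of mice 715, 725 and 728. Differences were tested with edgeR's quasi-likelihood test over 15348 genes with mouse as a term, and a gene was called, and is said to have risen or fallen, at a Benjamini-Hochberg adjusted p of at most 0.05. All 6 CD8 T cell markers passed the low-count filter and summed to 1471 to 1870 CPM with CoA, 1855 to 2334 in Tc0 and 1779 to 2213 in Tc22. Of these, Cd3d, Cd3e, Cd3g and Trac, genes of the T cell receptor complex, fell with CoA against Tc0, with log2 fold changes of -0.79, -0.72, -0.72 and -0.48 (edgeR adjusted p = 0.00616, 0.00598, 0.0231 and 0.00909), while Cd8a and Cd8b1 had -0.06 and 0.00 and did not pass. The 5 macrophage and monocyte markers, 3 of which passed, summed to 2.39 to 11.2 CPM with CoA, 1.20 to 3.22 in Tc0 and 0.748 to 2.24 in Tc22, and Cd14 and Lyz2 rose with CoA (log2 fold changes 2.24 and 1.15, edgeR adjusted p = 0.0134 and 0.0117). The 4 dendritic cell markers, all of which passed, summed to 5.46 to 9.37 CPM with CoA, 3.73 to 5.005 in Tc0 and 4.36 to 5.85 in Tc22, and 1 of them, Zbtb46, rose with CoA (log2 fold change 1.06 ± 0.24 SE, edgeR adjusted p = 0.0139). The part of these markers in the results below was not tested. Of the other marker lists, the 4 of B cells reached 11.8 CPM in sum, and those of CD4 T, natural killer and erythroid cells stayed at or under 1.95 CPM. The Tc0 library of mouse 728 stood apart from the other Tc0 libraries along the GC content of transcripts, as described further on.

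Of the 50 genes, 49 passed the low-count filter. Psmb11, the active subunit of the thymoproteasome of cortical thymic epithelium, did not: it had 2 counts in the Tc0 library of mouse 728, 1 count in the Tc22 library of mouse 728 and 0 in the other libraries. Psma8, a testis-specific alpha subunit, passed at 1.20, 0.466 and 0.578 CPM in Tc0, 1.56, 0.759 and 0.932 CPM in Tc0 with CoA and 1.12, 0.415 and 0.831 CPM in Tc22. Per kilobase of transcript, the 14 core genes had a median of 140.2 CPM over the 9 libraries, from 69.4 for Psmb5 to 226 for Psma4, an alpha subunit. The 17 genes of the 19S particle lay lower, with a median of 75.4 CPM per kilobase, from 30.1 for the lid subunit gene Psmd3 to 143 for Psmd14, which encodes the deubiquitinase of the lid. Immunoproteasome genes had a median of 151 CPM per kilobase, from 20.04 for Psmb10 to 183 for Psmb8. Among the other 14 the median was 17.4 and Psme3, the gene of a nuclear activator, was highest at 58.3, with Psmb11 lowest at 0.00228.

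In Tc0 cells with CoA against Tc0 cells, 19 of the 49 tested proteasome genes rose and 0 fell. Over all genes tested, 12.5% rose and 12.0% fell by the same test, and among the 3463 genes with at least the mean level of the lowest core or 19S subunit (62.4 CPM) 14.5% rose and 17.1% fell. The 19 were 12 of the 17 genes of the 19S particle, 4 of the 14 core genes and 3 of the 13 others tested. None of the 5 immunoproteasome genes passed, with 1 (Psmb9, lower) at an unadjusted p under 0.05 and 0 called by DESeq2. Psmb9 was also the sole proteasome gene that was lower at an unadjusted p under 0.05, and DESeq2 likewise called 19 higher and 0 lower. The median log2 fold change was 0.47 for the 19S genes, 0.22 for the core genes, -0.02 for the immunoproteasome genes and -0.01 over all genes tested. In 14 of the 49 genes all 3 CoA libraries lay above all 3 Tc0 libraries, against 14.2% of all genes, and in 0 did they all lie below, against 13.6%.

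**Figure D1:**
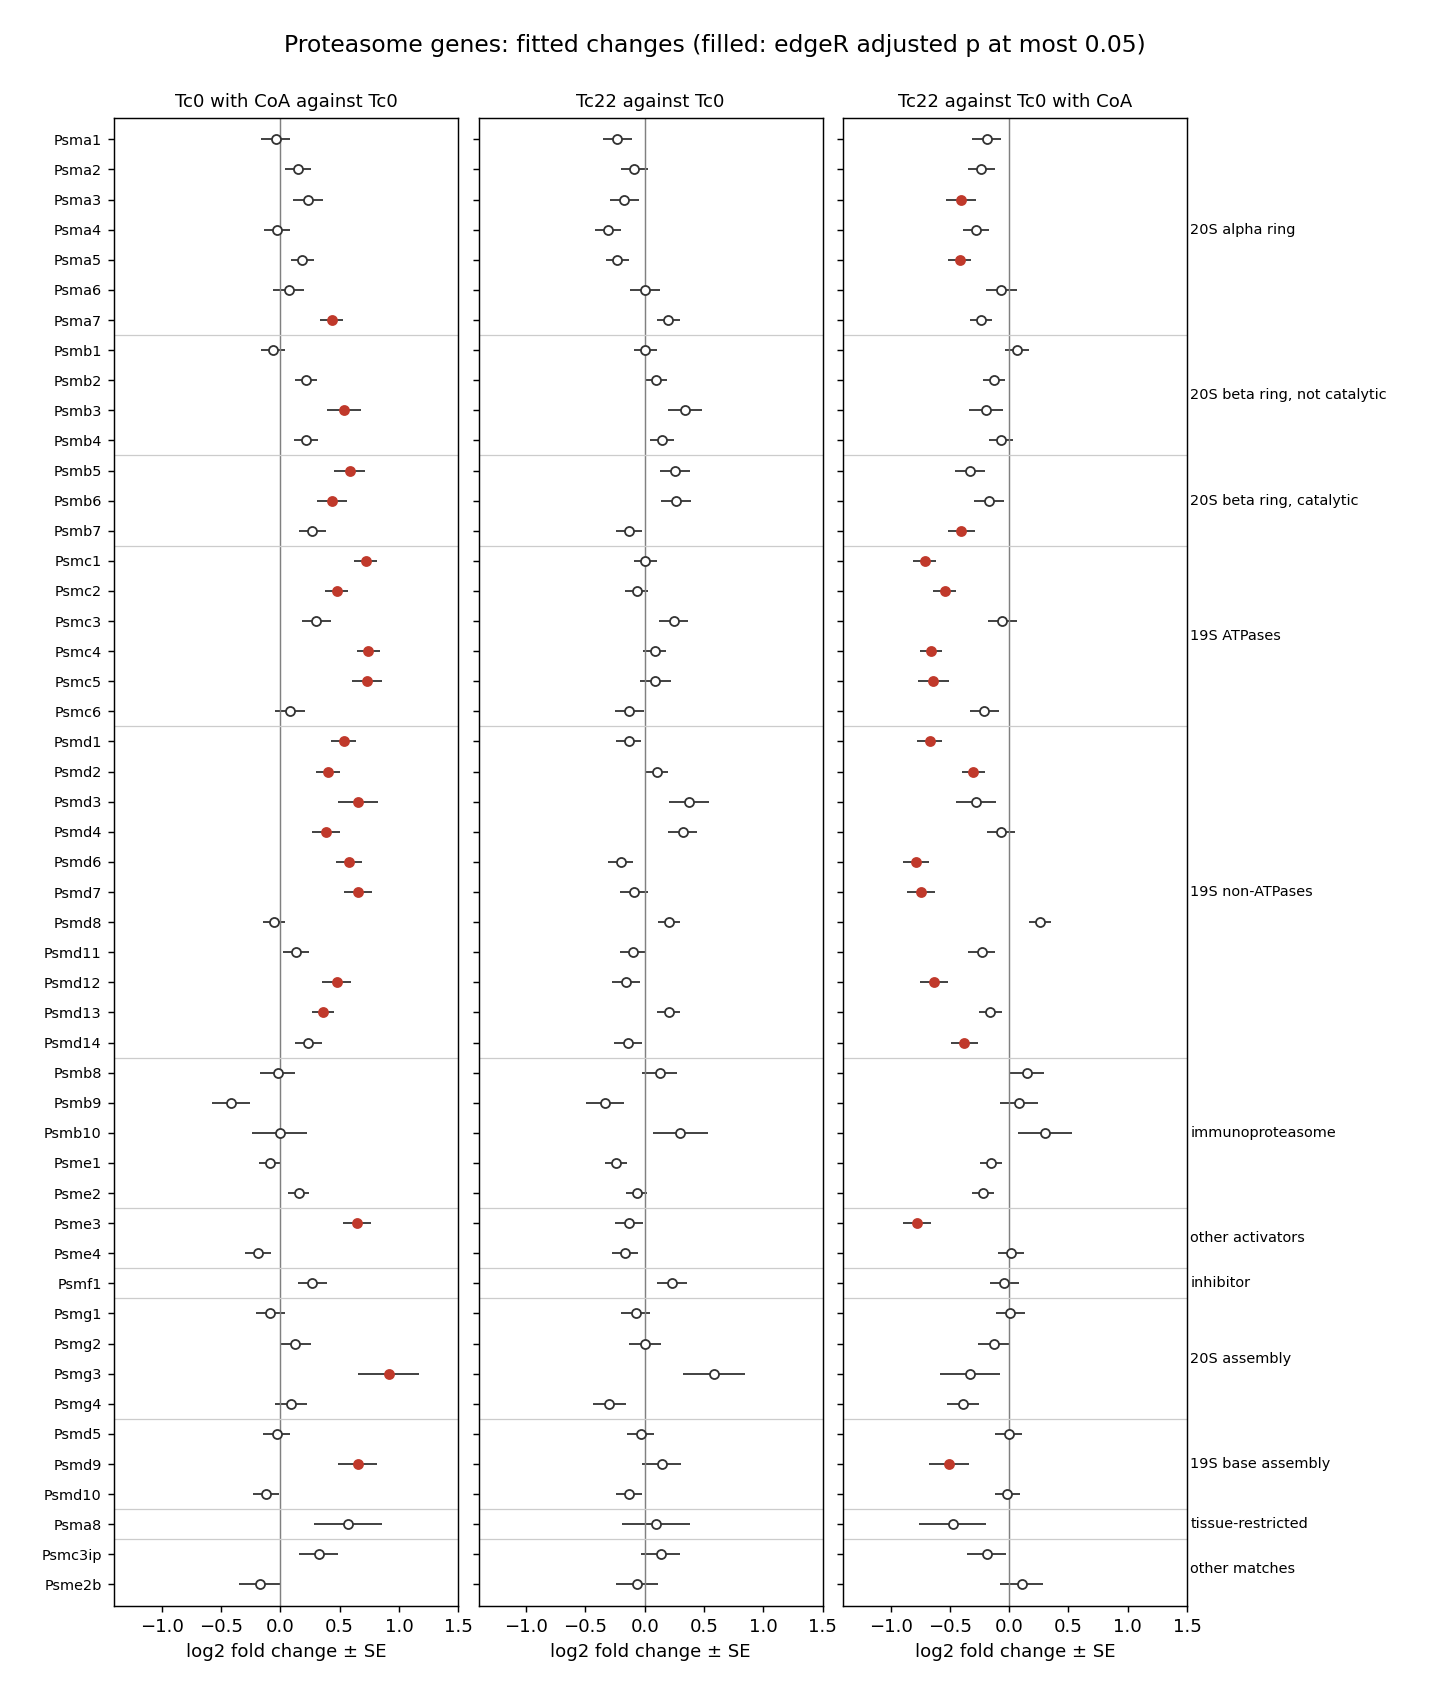
Fitted log2 fold change (x axis, bars are standard errors) of the 49 tested proteasome genes (rows, grouped by role) in the 3 comparisons, filled where the edgeR adjusted p was at most 0.05. With CoA 19 genes are filled on the side of higher values, in Tc22 against Tc0 none is filled, and in Tc22 against Tc0 with CoA 15 are filled on the side of lower values, most of them among the 19S genes.

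The ATPases of the 19S base, the ring that unfolds substrates and opens the barrel, had a median log2 fold change of 0.60 with CoA. Of the 6 genes 4 rose, where 12.5% of all genes tested did. Psmc1 had 176, 165 and 155 CPM in Tc0, 255, 292 and 271 CPM in Tc0 with CoA and 165, 176 and 158 CPM in Tc22. The CoA libraries lay well above the others in every mouse, and the Tc0 and Tc22 libraries overlapped. Psmc1 rose 1.65-fold with CoA (log2 fold change 0.72 ± 0.10 SE, edgeR adjusted p = 0.00258). Psmc4 had 76.7, 87.6 and 98.2 CPM in Tc0, 129, 159 and 151 CPM in Tc0 with CoA and 81.8, 103 and 93.6 CPM in Tc22, and again no CoA library overlapped the others. It rose 1.67-fold (log2 fold change 0.74 ± 0.10 SE, edgeR adjusted p = 0.00218). Psmc5 had 48.2, 48.2 and 58.7 CPM in Tc0, 69.6, 97.2 and 91.8 CPM in Tc0 with CoA and 56.0, 55.8 and 52.8 CPM in Tc22. Its lowest CoA library, that of mouse 715, was still above the highest Tc0 library, and it rose 1.66-fold (log2 fold change 0.73 ± 0.13 SE, edgeR adjusted p = 0.00582). Psmc2 rose less, from 102, 99.6 and 89.8 CPM in Tc0 to 128, 150.4 and 128 CPM with CoA (log2 fold change 0.48 ± 0.10 SE, edgeR adjusted p = 0.00885).

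The remaining ATPase genes did not pass. Psmc3 had 86.2, 91.9 and 148 CPM in Tc0 and 106, 134 and 157 CPM with CoA, higher with CoA in each mouse but with overlapping groups, since the Tc0 library of mouse 728 was above the CoA libraries of mice 715 and 725 (log2 fold change 0.30 ± 0.12 SE, edgeR adjusted p = 0.102). Psmc6, the ATPase gene with the highest level per kilobase (133 CPM), had 358, 329.9 and 223 CPM in Tc0 and 317, 339 and 292 CPM with CoA (log2 fold change 0.08 ± 0.12 SE, edgeR adjusted p = 0.68). Its groups overlapped, and mouse 715 had less with CoA than without. The fitted changes of the 6 genes, whose products share a ring in equal number, ranged from 0.08 to 0.74, and differences between the genes were not tested.

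**Figure D2:**
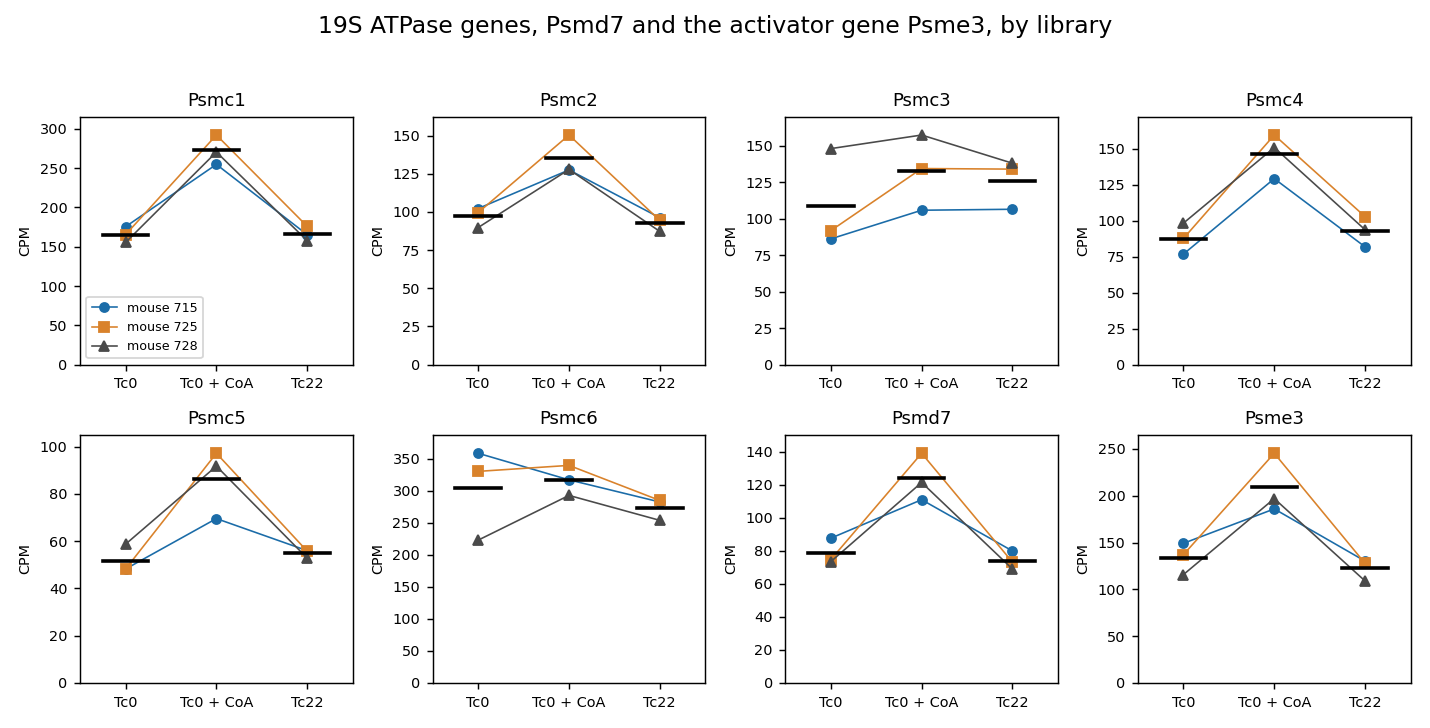
CPM (y axis) of the 6 ATPase genes of the 19S base, the lid gene Psmd7 and the activator gene Psme3 in each of the 9 libraries, by group (x axis); lines join the libraries of a mouse and thick bars are group means. In Psmc1, Psmc2, Psmc4, Psmc5, Psmd7 and Psme3 the 3 CoA libraries lie above all 6 others. In Psmc3 all groups overlap. In Psmc6 the Tc0 group overlaps both others, while the Tc22 libraries lie below the CoA libraries.

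Of the 11 other genes of the 19S particle, 8 rose with CoA, where 12.5% of all genes tested did. Psmd1 and Psmd2 encode the large scaffold subunits of the base. Psmd1 went from 262, 238 and 189 CPM in Tc0 to 327, 367 and 298 CPM with CoA without overlap (log2 fold change 0.53 ± 0.10 SE, edgeR adjusted p = 0.00773). Psmd2 went from 302, 283 and 304 to 368, 407 and 401 CPM (log2 fold change 0.40 ± 0.10 SE, edgeR adjusted p = 0.017). Psmd4 encodes a ubiquitin receptor of the cap and rose by a log2 fold change of 0.38 ± 0.12 SE (edgeR adjusted p = 0.0424), with overlap at the Tc0 library of mouse 728.

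Among the genes of the lid, Psmd7, which encodes the partner of the deubiquitinase, had 87.7, 74.7 and 73.5 CPM in Tc0, 111, 139 and 122 CPM in Tc0 with CoA and 80.0, 73.2 and 69.0 CPM in Tc22. All CoA libraries were above all others, and Psmd7 rose 1.58-fold (log2 fold change 0.66 ± 0.12 SE, edgeR adjusted p = 0.00595). Psmd6 had 119, 126 and 81.7 CPM in Tc0, 150.2, 193 and 141 CPM in Tc0 with CoA and 90.1, 108 and 82.9 CPM in Tc22. The CoA libraries again did not overlap the others (log2 fold change against Tc0 0.58 ± 0.11 SE, edgeR adjusted p = 0.00706). The lid genes Psmd12, Psmd13 and Psmd3 also rose, with log2 fold changes of 0.47, 0.36 and 0.65 (edgeR adjusted p = 0.0192, 0.0236 and 0.0221). The genes that did not pass were Psmd14, at 256, 223 and 169 CPM in Tc0 and 254, 261 and 241 CPM with CoA, and the lid genes Psmd11 and Psmd8. Psmd8 was lower with CoA in each mouse by a small margin, with 188, 185 and 200.2 CPM in Tc0 and 179, 179 and 195 CPM with CoA (log2 fold change -0.05 ± 0.09 SE, edgeR adjusted p = 0.722).

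In the 20S core, 1 of 7 alpha-ring genes, 1 of 4 non-catalytic beta genes and 2 of 3 catalytic beta genes rose with CoA. Over all genes tested 12.5% rose, and 14.5% of those with at least 62.4 CPM, so the alpha-ring count was near the share over all genes. Psma7, of the alpha ring that gates the barrel, went from 116, 115 and 144 CPM to 151, 167 and 189 CPM (log2 fold change 0.43 ± 0.10 SE, edgeR adjusted p = 0.0121). Psmb3, of the beta ring, rose by a log2 fold change of 0.54 ± 0.14 SE (edgeR adjusted p = 0.0244). Psmb5, the chymotrypsin-like subunit, had 38.3, 44.8 and 71.2 CPM in Tc0, 60.3, 76.6 and 90.9 CPM in Tc0 with CoA and 50.1, 64.4 and 65.1 CPM in Tc22. CoA was higher than Tc0 within each mouse, but the CoA library of mouse 715 was below the Tc0 library of mouse 728 (log2 fold change 0.58 ± 0.13 SE, edgeR adjusted p = 0.012). Psmb6, the caspase-like subunit, had 61.8, 62.5 and 102 CPM in Tc0, 85.2, 97.8 and 119 CPM in Tc0 with CoA and 76.5, 94.3 and 95.1 CPM in Tc22. The same Tc0 library overlapped the CoA group (log2 fold change 0.43 ± 0.13 SE, edgeR adjusted p = 0.0338). Psmb7, the trypsin-like subunit, did not pass although its CoA libraries lay above its Tc0 libraries, with 244, 205 and 179.6 CPM in Tc0 and 248, 261 and 246 CPM with CoA (log2 fold change 0.27 ± 0.11 SE, edgeR adjusted p = 0.107). The other alpha-ring genes ranged from -0.04 (Psma1) to 0.23 (Psma3) in log2 fold change, and Psmb1 had -0.06.

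Outside core and cap, Psme3, which encodes the PA28 gamma activator of nuclear proteasomes, had 149, 137 and 116 CPM in Tc0, 186, 245 and 197 CPM in Tc0 with CoA and 130.2, 128 and 109 CPM in Tc22. Every CoA library was above every other library, and Psme3 rose 1.56-fold (log2 fold change 0.65 ± 0.12 SE, edgeR adjusted p = 0.00621). Psmd9, a chaperone of the assembling base, rose at a low level, from 11.7, 9.23 and 14.5 to 15.1, 19.9 and 20.6 CPM (log2 fold change 0.65 ± 0.17 SE, edgeR adjusted p = 0.0206). Psmg3, a chaperone of the alpha ring, had the largest fitted change of all the proteasome genes (log2 fold change 0.91 ± 0.26 SE, edgeR adjusted p = 0.0299) with a wide spread, at 6.26, 4.24 and 13.1 CPM in Tc0 and 9.53, 13.5 and 20.1 CPM with CoA. The lowest fitted values among the others were those of Psme4, the gene of the PA200 activator (-0.19 ± 0.11 SE, edgeR adjusted p = 0.246), and of Psme2b, a gene named after Psme2 (-0.17 ± 0.18 SE, edgeR adjusted p = 0.524). If Psme2 and Psme2b share sequence, reads could have been split between them, so both are uncertain. Psmf1, which encodes the inhibitor PI31, and Psmc3ip, which matches by name and encodes a protein of meiotic recombination, did not pass.

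Of the 19 genes that rose, 6 (Psmc1, Psmc4, Psmc5, Psmd6, Psmd7 and Psme3) were called whichever single library was left out. Leaving out Tc0 of mouse 725, or CoA of mouse 728, gave 6 calls, and leaving out CoA of mouse 725 gave 7, while the calls of higher expression over all genes went from 1915 to 656, 815 and 756 in the same fits.

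Promoter sequences from RefSeq (GRCm38.p6), matched by symbol, covered 42 of the 50 genes, and the 250 bases before each start were searched on both strands. They are shown because several genes of separate chromosomes moved together with CoA. The core of the antioxidant response element, to which NRF1 binds, was searched as TGACNNNGC. It was found in 5 of the 42 promoters, 11.9%, against 11.52% of the 27025 promoters searched. Those 5 were Psmb5, Psmb6, Psmd12 and Psmd9, which rose with CoA, and Psmc6, which did not pass. The other genes that rose with CoA held no match or, like Psmd7, were not searched. The stretches around the match are given below in the direction of the gene, 5′ to 3′, with the match in capitals. Psmb5 (chr14:54618004-54618072, minus strand), Psmb6 (chr11:70525318-70525356, plus strand), Psmd12 (chr11:107479278-107479319, plus strand), Psmd9 (chr5:123228129-123228189, plus strand) and Psmc6 (chr14:45329574-45329635, plus strand) follow in that order.
Psmb5: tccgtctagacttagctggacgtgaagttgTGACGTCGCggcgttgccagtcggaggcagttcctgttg
Psmb6: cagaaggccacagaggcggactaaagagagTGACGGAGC
Psmd12: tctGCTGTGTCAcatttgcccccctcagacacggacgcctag
Psmd9: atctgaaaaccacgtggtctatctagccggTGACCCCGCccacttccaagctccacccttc
Psmc6: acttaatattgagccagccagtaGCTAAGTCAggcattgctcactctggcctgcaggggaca
In Psmd12 and Psmc6 the match lies on the opposite strand. The Psmb5 stretch runs into the first exon of the GENCODE annotation.

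A further motif, the CCAAT box bound by NF-Y, was in 15 of the 42 promoters, 35.7%, against 37.5% of all promoters. Of the 5 genes called with CoA in every alternative analysis, Psmc1 and Psme3 held a match, Psmc4 and Psmc5 held none, and Psmd7 was not searched. The matches in Psmc1 and Psme3 are shown in capitals. Psmc1 lies at chr12:100109997-100110061 and Psme3 at chr11:101316169-101316212, both on the plus strand, and in Psme3 the match is on the opposite strand.
Psmc1: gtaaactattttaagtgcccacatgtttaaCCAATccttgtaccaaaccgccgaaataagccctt
Psme3: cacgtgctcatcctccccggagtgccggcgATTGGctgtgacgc
The interferon-stimulated response element core (GAAA, any 2 bases, GAAA) was in 3 of the 42 promoters (Psmb3, Psmd4 and Psmd9), 7.14%, against 3.46% of all, and in 0 of the 5 immunoproteasome promoters. The gamma-activated site TTCNNNGAA was in 2 (Psmb8 and Psmg1), 4.76%, against 8.13% of all. A match describes letters in this window and is not a measured binding site.

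None of the 5 immunoproteasome genes was called in any of the 3 comparisons by the edgeR test described above or by DESeq2. Over all genes edgeR's test called 12.5% higher and 12.0% lower with CoA, and 16.0% each way in Tc22 against CoA. In Tc22 against Tc0 it called 2.48% higher and 1.21% lower. Whether 0 of 5 departs from these shares was not tested. In each comparison 1 of the 5 genes had an unadjusted p under 0.05 (Psmb9 with CoA, Psme1 in Tc22 against Tc0 and Psme2 in Tc22 against CoA). Some alternative fits, given further on, did call Psmb9, Psmb10, Psme1 or Psme2. In the GENCODE M21 annotation of GRCm38, Psmb9 (chr17:34181987-34187764, minus strand) and Psmb8 (chr17:34197721-34201454, plus strand) lie in the class II region on either side of Tap1, and Psme1 (chr14:55578123-55581529, plus strand) and Psme2 (chr14:55587441-55591113, minus strand) are neighbours. Psmb8, which replaces Psmb5, had 212, 243 and 437 CPM in Tc0, 249, 239.5 and 366 CPM in Tc0 with CoA and 272, 312 and 345 CPM in Tc22. Mouse 728 was highest in all 3 groups and the groups overlapped (log2 fold change with CoA -0.02 ± 0.14 SE, edgeR adjusted p = 0.927). Psmb9, which replaces Psmb6, had 68.6, 91.2 and 150.1 CPM in Tc0, 73.3, 60.1 and 91.5 CPM in Tc0 with CoA and 71.9, 74.3 and 90.0 CPM in Tc22. It was lower with CoA in mice 725 and 728 and slightly higher in mouse 715, and the groups overlapped (log2 fold change -0.42 ± 0.16 SE, edgeR adjusted p = 0.0839). Without the Tc0 library of mouse 715 the value was -0.63 and it passed (edgeR adjusted p = 0.0131), as it did without the CoA library of mouse 715 (-0.55, edgeR adjusted p = 0.0375). Without the Tc0 library of mouse 728 it was -0.23 and did not pass (edgeR adjusted p = 0.29).

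Psmb10, which replaces Psmb7, had 12.4, 17.2 and 49.97 CPM in Tc0, 16.2, 20.7 and 34.4 CPM in Tc0 with CoA and 18.5, 31.8 and 35.4 CPM in Tc22. Its Tc0 libraries spanned a wider range than the other groups, mouse 728 being the high one, and no direction held across mice with CoA (log2 fold change -0.01 ± 0.23 SE, edgeR adjusted p = 0.989). Psme1, of the PA28 activator, had 164, 186 and 191 CPM in Tc0, 167, 162 and 180.3 CPM in Tc0 with CoA and 146, 153 and 158 CPM in Tc22. Psme2, its partner, had 149, 145 and 166 CPM in Tc0, 165, 170.4 and 175 CPM in Tc0 with CoA and 140.5, 148 and 149.6 CPM in Tc22. These activator genes had narrow spreads, and Psme2 was higher with CoA in each mouse without passing the test (log2 fold change 0.15 ± 0.09 SE, edgeR adjusted p = 0.246), while Psme1 had -0.09 ± 0.09 SE (edgeR adjusted p = 0.53).

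Since each inducible subunit takes the place of a standard one, the balance of each pair was followed per kilobase of transcript. Psmb8 made up 75.3%, 75.0% and 77.2% of Psmb8 plus Psmb5 in Tc0, 69.5%, 63.3% and 69.0% in Tc0 with CoA, and 75.0%, 72.8% and 74.5% in Tc22. The CoA libraries were below all others. Within a mouse the log2 ratio of Psmb8 to Psmb5 was lower with CoA than in Tc0 in 3 of 3 mice, by -0.61 ± 0.188 (SD, n = 3) on average. Psmb5 had risen while Psmb8 had not passed the test.

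Psmb9 made up 39.6%, 46.3% and 46.5% of Psmb9 plus Psmb6 in Tc0, 33.7%, 26.6% and 31.3% with CoA, and 35.7%, 31.7% and 35.8% in Tc22. All Tc0 libraries lay above all others. The log2 ratio was lower than in Tc0 in 3 of 3 mice with CoA (-0.85 ± 0.444, SD, n = 3) and in Tc22 (-0.59 ± 0.327, SD, n = 3), and these comparisons share the Tc0 libraries. Psmb10 made up 4.30%, 6.90% and 19.8% of Psmb10 plus Psmb7 in Tc0, 5.47%, 6.55% and 11.03% with CoA, and 8.04%, 12.3% and 14.6% in Tc22. Here the groups overlapped, with mouse 728 highest in each. The ratios are descriptions of transcript levels without a test, and the sizes of the shares depend on which transcript length is used.

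**Figure D3:**
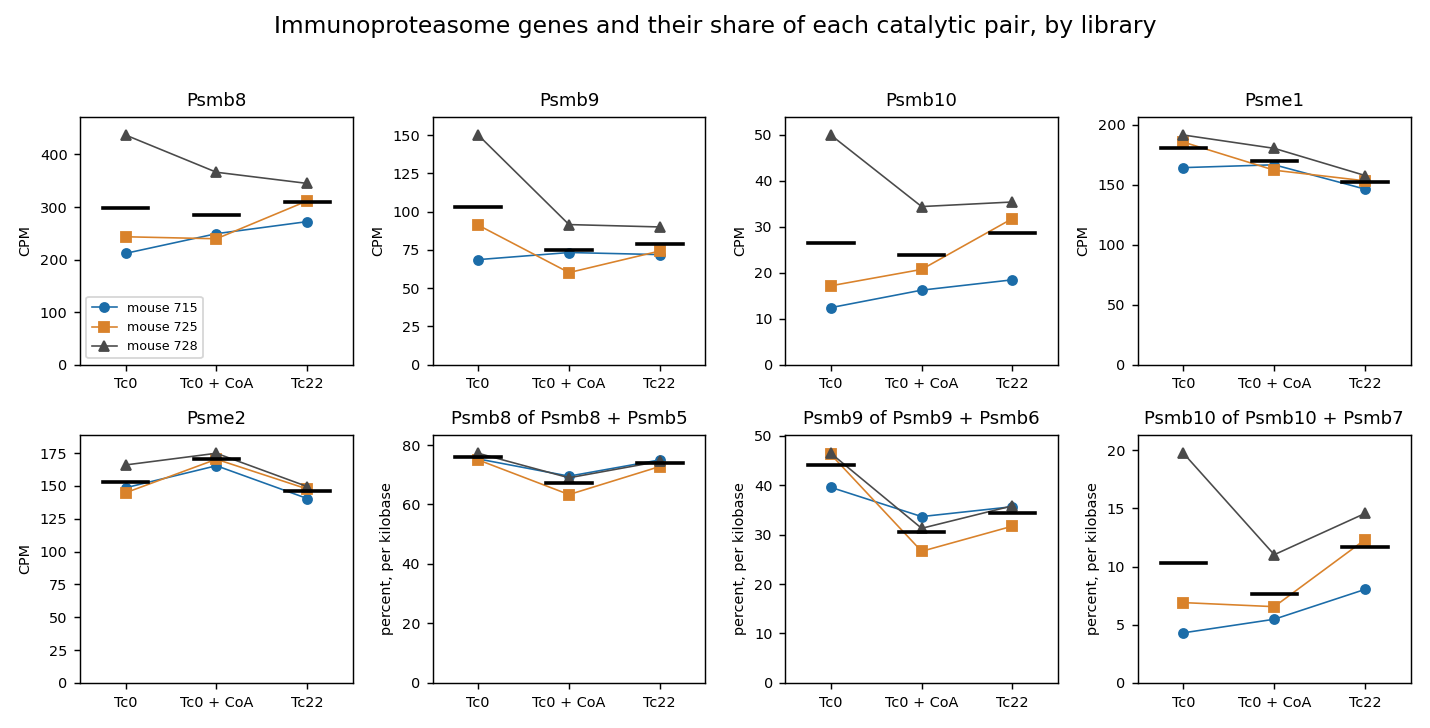
CPM (y axis) of the 5 immunoproteasome genes and, in the last 3 panels, the inducible gene's percent of each catalytic pair per kilobase, in each library by group (x axis); lines join the libraries of a mouse and thick bars are group means. The Psmb8 share is lowest in the 3 CoA libraries and the Psmb9 share is highest in the 3 Tc0 libraries, while Psmb10 in the Tc0 library of mouse 728 stands far above the other Tc0 libraries.

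Summed over all 50 genes, proteasome transcripts made up 6447 ± 248 CPM in Tc0, 7493 ± 328 CPM with CoA and 6242 ± 186 CPM in Tc22 (SD, n = 3 each). The lowest CoA library, at 7119 CPM, was above the highest Tc0 library, at 6699 CPM. The 19S genes contributed 2410 ± 134 CPM in Tc0, 3147 ± 197 with CoA and 2412 ± 73.6 in Tc22 (SD, n = 3 each). The core genes summed to 2578 ± 225, 2867 ± 86.1 and 2463 ± 86.1 CPM in the same order (SD, n = 3 each). Their Tc0 libraries overlapped both other groups, while all CoA libraries lay above all Tc22 libraries. The immunoproteasome sums overlapped between all groups, at 761 ± 206, 724 ± 107 and 715 ± 64.2 CPM (SD, n = 3 each). In bulk RNA these values cannot tell more RNA per cell from a changed mix of cells.

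In Tc22 cells against Tc0 cells with CoA, 15 of the 49 genes were lower in Tc22 and 0 were higher by edgeR's test, where 16.0% of all genes were lower and 16.0% higher. Psmd8 was the sole gene higher at an unadjusted p under 0.05, and DESeq2 called 15 lower and 0 higher. Among the 3463 genes of at least 62.4 CPM, 21.9% were lower. The 15 were 10 of 17 genes of the 19S particle, 3 of 14 core genes, Psme3 and Psmd9, with a median log2 fold change of -0.38 for the 19S genes, -0.21 for the core genes, 0.08 for the immunoproteasome genes and 0.01 over all genes tested. In 24 genes all Tc22 libraries lay below all CoA libraries, against 21.7% of all genes, and in Psmd8 alone they all lay above, against 20.2%. This comparison uses the same CoA libraries as the previous one, so its direction is not independent of it. The markers that moved with CoA also differed here: Cd3d, Cd3e, Cd3g and Trac were higher in Tc22, by log2 fold changes of 0.58 to 0.83, and Cd14, Lyz2, Csf1r and Zbtb46 were lower, by -0.95 to -2.58, all called by edgeR's test. Their part in the result was not tested.

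The ATPase genes Psmc1, Psmc2, Psmc4 and Psmc5 fell in Tc22 against CoA, with log2 fold changes of -0.71, -0.54, -0.66 and -0.64 (edgeR adjusted p = 0.00127, 0.00327, 0.00154 and 0.00577). The largest fall of the lid was that of Psmd6 (-0.78 ± 0.11 SE, edgeR adjusted p = 0.0013), followed by Psmd7 (-0.74 ± 0.12 SE, edgeR adjusted p = 0.00216). Psme3 fell by as much (-0.78 ± 0.12 SE, edgeR adjusted p = 0.00178). The scaffold genes Psmd1 and Psmd2 had log2 fold changes of -0.67 and -0.30, the lid gene Psmd12 -0.63, the deubiquitinase gene Psmd14 -0.38 and the base chaperone gene Psmd9 -0.51 (edgeR adjusted p = 0.00197, 0.0404, 0.00429, 0.034 and 0.0413). Psmd8 went the other way, with 204, 227 and 229.8 CPM in Tc22 against 179, 179 and 195 CPM with CoA, and did not pass (log2 fold change 0.26 ± 0.09 SE, edgeR adjusted p = 0.0583).

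The core genes that fell in Tc22 against CoA were Psma3, Psma5 and Psmb7. Psma5, of the alpha ring, had 161, 173 and 139 CPM in Tc0, 164, 199 and 175 CPM in Tc0 with CoA and 129.7, 142 and 130.2 CPM in Tc22 (log2 fold change -0.42 ± 0.10 SE, edgeR adjusted p = 0.0109). Psma3, also of the alpha ring, had a log2 fold change of -0.41 ± 0.12 SE (edgeR adjusted p = 0.0332), and Psmb7 one of -0.40 ± 0.11 SE (edgeR adjusted p = 0.0222). None of the core genes that rose with CoA against Tc0 was called here: Psma7 had -0.24, Psmb3 -0.19, Psmb5 -0.33 and Psmb6 -0.17 (edgeR adjusted p = 0.0877, 0.334, 0.0776 and 0.334). Of the immunoproteasome genes, the largest positive values were those of Psmb10 (0.30 ± 0.23 SE, edgeR adjusted p = 0.342) and Psmb8 (0.15 ± 0.14 SE, edgeR adjusted p = 0.468), and Psme2 had -0.22 ± 0.09 SE (edgeR adjusted p = 0.0892). A set of 9 genes (Psmc1, Psmc2, Psmc4, Psmc5, Psmd1, Psmd6, Psmd7, Psmd12 and Psme3) was called whichever library was left out. The count was 9 without any one of the CoA libraries of mice 725 and 728 or the Tc22 libraries of mice 715 and 725. Over all genes the lower calls went from 2457 to 1190, 1182, 1588 and 1037 in the same fits, in that order.

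In Tc22 against Tc0, edgeR's test called 0 of 49 proteasome genes in either direction, where 2.48% of all genes rose and 1.21% fell. At an unadjusted p under 0.05 there were 6 (Psma4, Psma5, Psmb3, Psmd4, Psme1 and Psmg3), and DESeq2 called 0. The groups did not overlap in Psmd2 and Psmd8, higher in Tc22, and in Psme1 and Psmg4, lower in Tc22, against 6.55% and 5.98% of all genes. The largest positive values were those of Psmg3 (0.59 ± 0.26 SE, edgeR adjusted p = 0.234), Psmd3 (0.37 ± 0.17 SE, edgeR adjusted p = 0.246) and Psmb3 (0.34 ± 0.14 SE, edgeR adjusted p = 0.214). The most negative were Psmb9 (-0.34 ± 0.16 SE, edgeR adjusted p = 0.26), Psma4 (-0.31 ± 0.11 SE, edgeR adjusted p = 0.168) and Psmg4 (-0.30 ± 0.14 SE, edgeR adjusted p = 0.243). Psmc1 and Psme3, which rose with CoA, had 0.01 ± 0.10 SE and -0.13 ± 0.12 SE here (edgeR adjusted p = 0.977 and 0.534).

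The count for Tc22 against Tc0 rested on 1 library. Without the Tc0 library of mouse 728, 7 genes were called higher in Tc22 (Psmb3, Psmb5, Psmb6, Psmb10, Psmc3, Psmd3 and Psmd4) and 4 lower (Psma1, Psma4, Psma5 and Psme4). Over all genes the calls went from 380 higher and 185 lower to 1555 and 1114 in the same fit. For CoA against Tc0 the count was 21 higher without that library, with all 19 kept and Psmc3 and Psmf1 added, and 1 lower (Psme4).

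That Tc0 library differed from the other Tc0 libraries along the GC content of the transcripts. Psmb10 (GC 56.5%) was 3.34-fold, Psmg3 (56.3%) 2.39-fold, Psmd3 (58.3%) 2.17-fold and Psmb8 (55.8%) 1.92-fold higher in it than in the Tc0 libraries of mice 715 and 725. Psma3 (40.8%) was 1.60-fold and Psmc6 (37.0%) 1.54-fold lower. Across the 49 genes the deviation and the GC content had a Spearman rho of 0.874, and across 15339 genes one of 0.760. The libraries of mouse 728 deviated in the same way in the other groups, with a rho across the 49 genes of 0.837 with CoA and 0.758 in Tc22. Those of mouse 715 went the opposite way, with -0.841 in Tc0, -0.782 with CoA and -0.761 in Tc22. For mouse 725 the values were -0.692, -0.385 and -0.037 in that order. Each deviation was taken from the other libraries of its group, so the values within a group depend on each other. These are correlations across genes that share libraries.

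The fold changes followed GC content less than the deviation of the Tc0 library of mouse 728 did (rho 0.874). Among the comparisons, Tc22 against Tc0 followed it most. For CoA against Tc0 the rho across the 49 genes was 0.243, for Tc22 against Tc0 0.570 and for Tc22 against CoA 0.164, against 0.121, 0.496 and 0.195 over all genes. Genes that rose with CoA had a median GC content of 51.6% and those that did not pass 48.7%. The immunoproteasome genes lay between 52.8% and 56.5% GC. With the counts corrected for GC content in each library, 25 proteasome genes rose with CoA, all 19 among them, and Psmb9 fell (-0.47, edgeR adjusted p = 0.0168). Over all genes the calls with CoA went from 1915 to 2760 higher and from 1848 to 2470 lower in the same fit. The correction also gave 25 proteasome genes lower in Tc22 against CoA, the immunoproteasome genes Psme1 and Psme2 among them. There the calls over all genes went from 2457 to 3266 lower. In Tc22 against Tc0 it gave 2 lower (Psmb9 and Psme1), where the calls over all genes went from 185 to 230 lower.

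**Figure D4:**
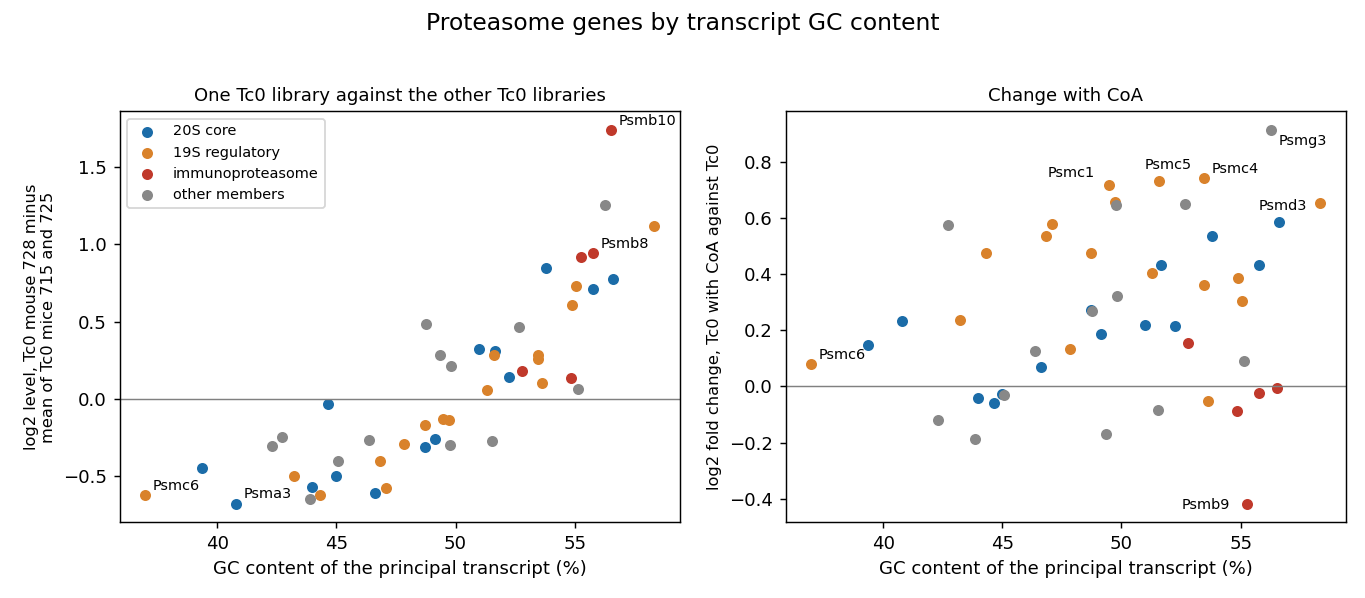
Proteasome genes by GC content of the principal transcript (x axis, percent), coloured by role: on the left the log2 level in the Tc0 library of mouse 728 minus the mean of the other Tc0 libraries, on the right the fitted log2 fold change with CoA. On the left the points climb with GC content (Spearman rho 0.874), from Psma3 and Psmc6 to Psmb10, and on the right the relation is weaker (rho 0.243), with Psmb9 lowest.

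A list of 23 measured genes of ubiquitin supply, proteasome assembly and their regulators was set beside the subunits. With CoA 5 rose and 1 fell, where 12.5% and 12.0% of all genes did, and its median log2 fold change was 0.08. Pomp, the maturation factor of the core, went from 141, 121 and 130.3 CPM in Tc0 to 153, 172 and 176 CPM with CoA (log2 fold change 0.36 ± 0.11 SE, edgeR adjusted p = 0.0369). Adrm1, a ubiquitin receptor of the 19S particle, and Uchl5, the deubiquitinase it holds, rose by log2 fold changes of 0.59 and 0.61 (edgeR adjusted p = 0.0236 and 0.0184). Uba1, the main ubiquitin-activating enzyme, and Vcp, the unfoldase that hands substrates to the proteasome, rose by 0.36 and 0.34 (edgeR adjusted p = 0.0269 and 0.0367).

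Nfe2l1, the gene of NRF1, did not pass, at 90.5, 61.8 and 98.6 CPM in Tc0 and 93.8, 88.1 and 105 CPM with CoA (log2 fold change 0.21 ± 0.12 SE, edgeR adjusted p = 0.236), nor did its relative Nfe2l2 (0.08 ± 0.11 SE, edgeR adjusted p = 0.657). Ngly1, which encodes the glycanase that processes NRF1, fell from 137, 182 and 126 CPM to 98.7, 75.6 and 87.4 CPM (log2 fold change -0.75 ± 0.16 SE, edgeR adjusted p = 0.0102). In Tc22 against Tc0, 0 of the 23 passed edgeR's test, with 3 at an unadjusted p under 0.05, and in Tc22 against CoA 2 were higher and 4 lower, where 16.0% of all genes were called in each direction. The higher ones were Ngly1 (0.58) and the polyubiquitin gene Ubb (0.49), and the lower ones Uchl5 (-0.71), Usp14 (-0.53), a further deubiquitinase of the proteasome, Adrm1 (-0.50) and Vcp (-0.38). The edgeR adjusted p was 0.0204, 0.0204, 0.00747, 0.0217, 0.0345 and 0.02 in that order.

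The immunoproteasome belongs to the class I presentation pathway, for which 25 genes were measured. With CoA 11 of them fell and 1 rose, against 12.0% and 12.5% of all genes, with a median log2 fold change of -0.42. Nlrc5, the transactivator of class I genes, had 132, 180.3 and 217 CPM in Tc0, 115, 91.2 and 118 CPM in Tc0 with CoA and 69.8, 77.0 and 78.5 CPM in Tc22. No CoA library reached the lowest Tc0 library, and Nlrc5 fell by 0.69 on the log2 scale (SE 0.15, edgeR adjusted p = 0.0111). Tap1, a peptide transporter gene, had 135, 197 and 343 CPM in Tc0, 120.3, 101 and 175 CPM in Tc0 with CoA and 131, 171 and 199.8 CPM in Tc22, and CoA was lower than Tc0 within each mouse (log2 fold change -0.70 ± 0.17 SE, edgeR adjusted p = 0.0178). Exons of Tap1 and Psmb9 overlap on opposite strands, and without knowledge of how strand was used in counting their reads cannot be told apart where they overlap. Class I heavy-chain genes fell in 5 of 7 cases, among them H2-Q4 (-0.66, edgeR adjusted p = 0.00582) and H2-Q7 (-0.65, edgeR adjusted p = 0.0095), near copies between which reads may have been split.

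Ifngr1, the interferon gamma receptor gene, fell as well (-1.11 ± 0.22 SE, edgeR adjusted p = 0.00799), and the 1 gene that rose was Calr, a chaperone of class I assembly (0.76 ± 0.11 SE, edgeR adjusted p = 0.00265). B2m, the class I light chain, and Irf1, an interferon-activated transcription factor, did not pass, with -0.37 ± 0.13 and -0.49 ± 0.20 SE (edgeR adjusted p = 0.0613 and 0.108). In Tc22 against Tc0, 4 of the 25 fell and 1 rose, against 1.21% and 2.48% of all genes. Among those that fell were Irf8 (-1.59 ± 0.15 SE), Nlrc5 (-1.21 ± 0.15 SE) and the peptide-trimming gene Erap1 (-0.52 ± 0.10 SE), with edgeR adjusted p of 0.000801, 0.00302 and 0.0231, and Ifngr2 rose (0.83 ± 0.15 SE, edgeR adjusted p = 0.0161). In Tc22 against CoA 8 were higher and 5 lower, against 16.0% of all genes in each direction. The lists share no gene with the proteasome genes, and whether their changes differ from those of the 5 immunoproteasome genes was not tested.

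Exons of 12 proteasome genes overlap a gene on the opposite strand and those of 4 a gene on the same strand. Psmb8, Psmb9, Psme1 and Psmb7 are among the former and Psmb5, Psmd1 and Psmg3 among the latter, and their counts carry that uncertainty.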

How the data were processed

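Per the labels' protocols, total RNA of CD8+ T cells was depleted of ribosomal RNA and made into stranded, randomly primed libraries, sequenced as paired ends. The authors deposited gene counts, 1 table of all 9 libraries and 9 single files that hold the same columns. STAR 2.5.2, RSEM 1.3.0, GRCm38 and mm10 are named per the submitters' processing notes. For the annotation release and strand setting the sources used here give nothing, and the counts are whole although RSEM writes estimated counts.

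Groups and mice came from the sample titles. The design text says that each mouse gave all populations, so mouse was a term in the fit. As a check of the pairing, deviations from the group means correlated between libraries of a mouse with r from 0.0699 to 0.617 (mean 0.360, 9 pairs). Between libraries of different mice r ran from -0.527 to 0.228 (mean -0.180, 18 pairs), so the ranges overlapped. The CoA library of mouse 725 had 0.179 with Tc0 of the same mouse and 0.228 with Tc0 of mouse 715. With mouse in the fit, p-values rest on the spread of within-mouse differences between 3 animals. That spread was estimated for each gene with information borrowed from all genes, as edgeR's quasi-likelihood method does. Counts were scaled by TMM, filtered with filterByExpr by group and tested over all 9 libraries by the quasi-likelihood method of edgeR 4.0.16 in R 4.3.3, with 4 residual degrees of freedom and a biological coefficient of variation of 0.159. Benjamini-Hochberg adjustment ran over 15348 genes, with a threshold of 0.05. The code was also run on counts simulated from the fit to these data, with results not given here. Lengths and GC content are those of the principal transcript in GENCODE M21, and for descriptions of deviations 0.5 CPM was added before taking logs. Over the table, 0.0226% of counts fell on IDs without a symbol. Those 53679 IDs include 4 pseudogenes that match the name pattern and were left out, and 2 genes of the ubiquitin list, Paaf1 among them, are not analysed here.

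The proteasome genes, their roles and the other lists were chosen with earlier results of these data known. Named were all immunoproteasome genes with Psmb5, Psmb6 and Psmb7, every called proteasome gene, the 3 largest and 3 lowest fold changes in each comparison, proteasome genes that did not pass the filter, the highest and lowest level per kilobase by role, up to 6 called genes of the other lists by smallest p, and a fixed set (Pomp, Nfe2l1, Nfe2l2, Nlrc5, Irf1, Tap1 and B2m, with 1 gene not reported here). Usp14, Adrm1, Uchl5, Vcp, Uba1 and Ubb, and genes given as counter-examples such as Psmc3, Psmc6 and Psmd8, were named after their values were seen where they fall outside this rule. Alternatives were other scaling (RLE, library size alone), DESeq2 1.42.0, no filter, no mouse term, the compared groups alone and each library left out in turn. A correction for transcript GC content and lengths from the union of exons were added after seeing the data.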

Additional observations from a re-analysis of the deposited data

How the results depend on the processing

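No fit with another scaling (RLE factors, library size alone) and no DESeq2 fit changed the number of proteasome genes called by more than 1.5 times, and all called genes kept their direction. Without the mouse pairing (no replicate block), 7 proteasome genes rose with CoA and 9 were lower in Tc22 against CoA. Over all genes these calls went from 1915 to 800 and from 2457 to 1080 in the same fit. Leaving out 1 library at a time gave 6 to 21 genes higher and 0 to 1 lower with CoA, 0 to 7 higher and 0 to 4 lower in Tc22 against Tc0, and 9 to 21 lower and 0 to 1 higher in Tc22 against CoA. Over all genes those fits gave 656 to 2360 higher and 504 to 1996 lower with CoA. They gave 148 to 1555 higher and 53 to 1114 lower in Tc22 against Tc0. In Tc22 against CoA they gave 1037 to 2978 lower and 1148 to 2935 higher. With no low-count filter 1 gene (Psmb9) fell with CoA, and with the compared groups alone 1 (Psmd8) was higher in Tc22 against CoA. Under the GC correction 2 genes were lower in Tc22 against Tc0, 1 was lower with CoA, 25 were lower in Tc22 against CoA and the median of the 19S genes there was -0.51.

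The share of Psmb8 in its pair in Tc0, Tc0 with CoA and Tc22 was 85.0%, 78.8% and 83.8% from counts without a length and 60.2%, 49.8% and 57.9% with the union of exons. For Psmb9 the shares from counts were 57.2%, 42.6% and 47.0%, and the union gave 31.3% in Tc22. For Psmb10 the union gave 19.8%, 15.8% and 22.9%. The changes within a mouse in the log2 ratios cannot depend on the length used, because a fixed length per gene cancels in them.

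The sign turned in uncalled genes near 0. Psmb10 with CoA was 0.0016 with RLE factors, 0.0083 with library size alone, 0.0061 with DESeq2 and 0.0278 with the compared groups alone. Leaving out 1 library at a time gave, with CoA, -0.206 to 0.394 for Psmb10, -0.142 to 0.165 for Psmb8 and -0.0024 to 0.170 for Nfe2l2, and in Tc22 against CoA -0.017 to 0.244 for Psmb9 and -0.183 to 0.046 for B2m. Under the GC correction Psmb8 was -0.102 in Tc22 against Tc0 and -0.0173 in Tc22 against CoA, where Psmb9 was -0.0645, Nfe2l1 -0.0079 and B2m 0.0234. The causes were not tested. Psma8 and Psmb11 rest on few counts, and depth limits what can be said of them.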

Other observations

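The 4 pseudogenes whose symbols match the proteasome pattern, Psmb5-ps, Psmb6-ps, Psmb6-ps2 and Psmb7-ps2, held between 0 and 5 counts in each library. The highest was Psmb7-ps2 with 5 counts in the Tc22 library of mouse 728. Few reads were thus assigned to these copies of Psmb5, Psmb6 and Psmb7.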
